A study of Mus musculus with 10 samples.

Results

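Ileal crypts of mice labelled as overexpressing Stat5 in the intestinal epithelium were compared with crypts of control mice. The members of the comparison were taken from the sample titles, 5 libraries titled Stat5 OE and 3 titled Stat5 Ctrl, which are 8 of the 10 libraries of the series. The other 2 libraries come from crypts with epithelial Stat5 deleted (KO). They enter the choice of genes, the scaling and the estimate of the spread, and some of their values are given beside OE and Ctrl. Of 28987 genes with deposited values, 13056 reached a TPM (a relative abundance corrected for transcript length) of at least 1 in at least 2 of the 10 libraries and were described.

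The OE mice are given as VilCreER;icS5 (STAT5IEC+++), the Ctrl mice as VilCreER;Stat5 (STAT5+/+) and the KO mice as VilCreER;Stat5 (STAT5IEC-/-). VilCreER is a tamoxifen-inducible Cre recombinase under the villin promoter, which is active in intestinal epithelium, so an allele that Cre switches is addressed in epithelial cells and not in other cells of the gut wall. All groups share this Cre. The labels do not spell out icS5, and mice that carry icS5 without its activation were not analysed here, so the allele's line and its activation cannot be told apart. Every mouse is labelled C57Bl6, male and 12 weeks old, and no label ties each library to its own animal. The p-values therefore reflect only how these samples spread, which may be technical.

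STAT5A and STAT5B are closely related transcription factors. Receptors for growth hormone, prolactin and several interleukins activate Janus kinases (JAKs), which phosphorylate STAT5, and the STAT5 dimer then enters the nucleus and binds DNA at motifs of the form TTCNNNGAA. Well-known targets include Cish and the Socs genes, which feed back on the receptors. In the crypt, stem cells and dividing progenitors sit next to Paneth cells, which secrete alpha-defensins and other antimicrobial products, while enterocytes that absorb nutrients lie towards the villus. B cells, T cells and macrophages of the gut wall can be shaken off with the crypts.

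Ctrl 2 stands apart from the other libraries, so each result is given with it and without it. Transcripts encoded by the mitochondrial genome made up 83.7% of its TPM, against 43.3% to 56.97% in the other 9 libraries, and its scaling factor was 0.295 against 0.831 to 1.31. Below, scaled TPM are TPM divided by that factor, and log2 differences are OE minus Ctrl on the log2(scaled TPM + 1) scale. Although all mice are labelled male, Y-linked transcripts summed to only 0.250 and 0.140 TPM in OE 3 and OE 4 and to 3.45 in Ctrl 3, against at least 32.3 in each other library. Epithelial markers were present throughout: Epcam, a surface protein of epithelia, was at 351 to 500.3 scaled TPM in Ctrl and 379 to 708 in OE, and villin (Vil1) at 174 to 434 and 166 to 348. Of the endothelial markers, Cdh5 was listed at 0 in every OE library, while Pecam1 was at 0 to 0.484 in Ctrl and 0.0869 to 1.50 in OE. Of the smooth muscle markers, Myh11 was listed at 0 in every OE library, and Des reached 0.436 in Ctrl and 0.457 in OE. Not every marker of other cells was low. The red cell marker Hbb-bs was at 36.4, 7.76 and 19.9 in Ctrl and 83.3, 11.1, 118, 29.2 and 61.5 in OE. Alas2, the other red cell marker, reached 0.522 in Ctrl and 0.808 in OE.

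The OE label was checked on Stat5a and Stat5b themselves. The Ctrl libraries held 0.970 to 1.76 scaled TPM of Stat5b. OE 2 to OE 5 lay above that range, between 2.65 and 5.53, whereas OE 1 was at 1.49. Its log2 difference was 0.82 (95% interval 0.08 to 1.56), with an adjusted p of 0.755 in limma. For Stat5a the Ctrl libraries spanned 1.07 to 2.60, OE 2 to OE 5 spanned 2.10 to 3.55 and OE 1 was at 1.56. Its log2 difference was 0.40 (-0.24 to 1.03). OE 1 therefore lies inside the Ctrl range for both genes, and the groups overlap for both. The two-sided exact permutation test gave p = 0.0893 for Stat5b and 0.161 for Stat5a, where 0.0179 is the smallest p that 56 splits allow. Without Ctrl 2 the exact permutation p was 0.143 for Stat5b and 0.0476 for Stat5a, the latter the smallest that 21 splits allow, and the log2 differences were 0.90 and 0.62. When OE 1 was left out instead, they were 1.02 and 0.51, with exact permutation p = 0.0571 and 0.0857. Without Ctrl 3, OE 3 and OE 4, the libraries low in Y-linked transcripts, they were 0.33 and 0.05.

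Stat3, the STAT used by interleukin 6 and interleukin 22 receptors, was the most abundant STAT gene here. It was at 80.8, 111 and 95.6 scaled TPM in Ctrl 1 to Ctrl 3 and at 59.2, 260, 209.5, 251 and 126 in OE 1 to OE 5. OE 2 to OE 5 lie above every Ctrl library and OE 1 lies below them all, the same library that is low for Stat5a and Stat5b. The log2 difference was 0.74 (-0.25 to 1.72, adjusted p = 0.756), and it was 0.85 without Ctrl 2. Stat4, a STAT of lymphocytes, was low everywhere, at 0.289, 0.587 and 0.545 in Ctrl and 1.45, 0.766, 1.13, 2.22 and 2.00 in OE, and its groups do not overlap. Its log2 difference was 0.74 (0.14 to 1.35, adjusted p = 0.755) and 0.80 without Ctrl 2. Stat2 and Stat6 had log2 differences of -0.20 and -0.34, each with an interval that spans 0.

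**Figure D1:**
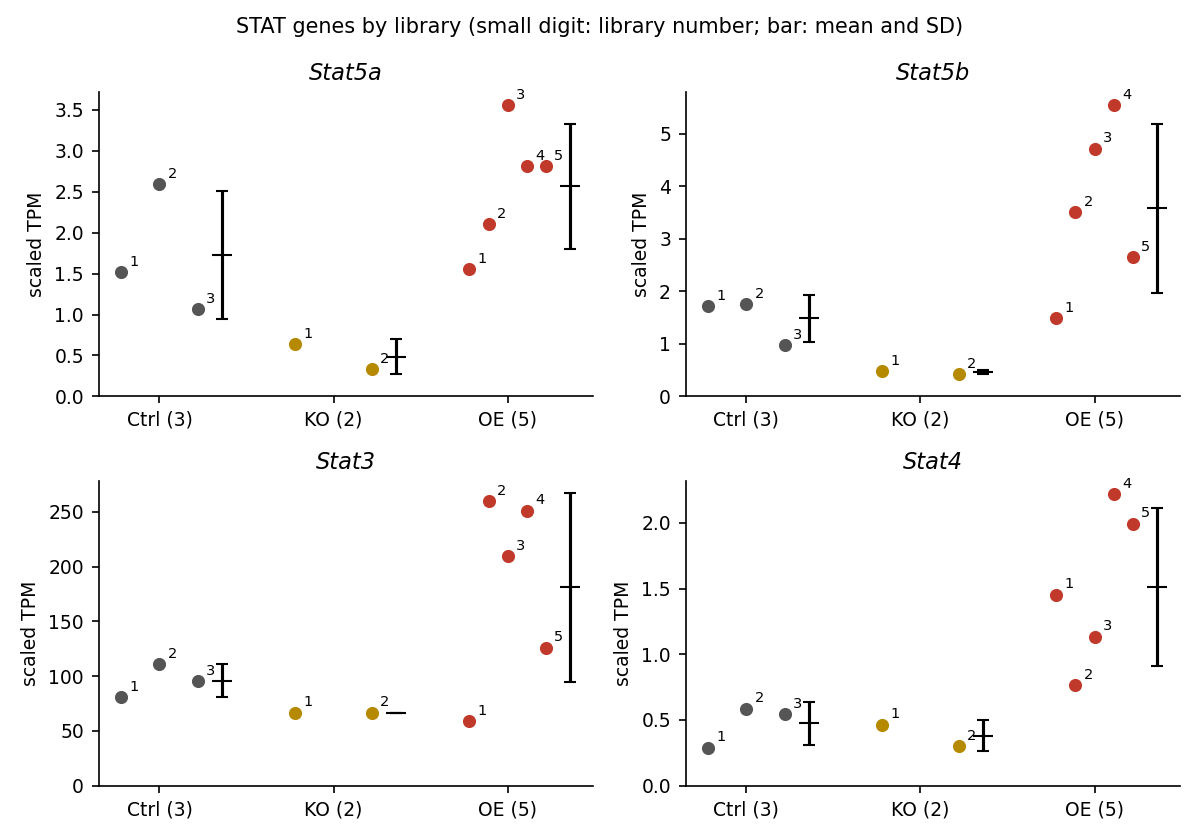
Scaled TPM (linear axes from 0) of Stat5a, Stat5b, Stat3 and Stat4 in each library, with the library number beside each point, and the mean and SD of the group as a bar. OE 1 lies in or below the Ctrl range for Stat5a, Stat5b and Stat3, while for Stat4 every OE library lies above every Ctrl library.

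No single gene separated OE from Ctrl at a false discovery rate of 0.05. In limma, 0 of 13056 genes (0%) were called higher and 0 (0%) lower, with all libraries and without Ctrl 2, and robust limma and limma with library weights also called 0. With the KO libraries left out of the fit, 1 gene was called, the processed pseudogene Gm12252 (adjusted p = 0.0135), named after its values were seen. It was listed at 0 in the 3 Ctrl libraries and in KO 1, at 8.87 in KO 2 and at 18.5, 29.9, 9.86, 12.3 and 28.3 scaled TPM in OE 1 to OE 5. The smallest adjusted p was 0.314 with all libraries and 0.998 without Ctrl 2. At an unadjusted p under 0.05 there were 495 genes higher in OE (3.79%) and 302 lower (2.31%), 797 in all, where a rate of 0.05 alone gives 652.8. Without Ctrl 2 there were 268 higher (2.05%) and 152 lower (1.16%). Genes under 0.05 in both fits with the same sign numbered 174 higher and 59 lower. The groups did not overlap for 289 genes higher (2.21%) and 198 lower (1.52%), and without Ctrl 2 for 495 (3.79%) and 458 (3.51%). Of all genes, 52.1% had a positive log2 difference with all libraries and 49.4% without Ctrl 2 (negative in 47.9% and 50.6%), and 71.7% kept their sign. The genes described next are therefore the ones that stand furthest apart in these libraries, not genes that passed the test.

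On the higher side, 128 protein-coding genes met the naming rule (groups not overlapping, and the mean of the higher group 5 scaled TPM or more), and the 12 with the smallest p are named. All of them but Pmf1 and Cd48 also do not overlap in TPM as deposited and have an unadjusted p under 0.05 without Ctrl 2. All 24 genes named in both directions had an adjusted p of 0.755. They fall into genes of basic cell functions and genes known mainly from white blood cells.

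Axin1 (chromosome 17, 26138688 to 26195811, mm10) encodes the scaffold on which beta-catenin is marked for destruction, a brake on Wnt signalling. It was at 3.52, 0.995 and 4.05 scaled TPM in Ctrl 1 to Ctrl 3 and at 10.3, 7.84, 11.4, 5.71 and 10.5 in OE 1 to OE 5. Every OE library lies above every Ctrl library, with OE 4 the closest. The log2 difference was 1.47 (0.69 to 2.26) and 1.05 without Ctrl 2. Alg8 (chromosome 7, 97371606 to 97392185), a glucosyltransferase that builds the sugar chain for protein glycosylation in the endoplasmic reticulum, was at 5.25, 0.282 and 3.05 in Ctrl and 14.7, 9.18, 14.9, 6.34 and 12.8 in OE. Here the lowest value of all is that of Ctrl 2, and the log2 difference of 1.92 (0.86 to 2.99) was 1.26 without it. Asl, argininosuccinate lyase of the urea cycle and arginine synthesis, was at 3.73, 5.76 and 9.84 in Ctrl and 23.8, 13.2, 24.4, 12.7 and 18.4 in OE. Its log2 difference hardly moved, 1.42 (0.65 to 2.20) with all libraries and 1.40 without Ctrl 2.

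Mrps12, a protein of the mitochondrial ribosome, was at 8.08, 10.8 and 9.14 in Ctrl and 30.4, 17.5, 23.0, 16.5 and 34.1 in OE, a log2 difference of 1.24 (0.64 to 1.85) and 1.34 without Ctrl 2. KO 1 and KO 2, at 16.3 and 13.4, also lay above every Ctrl library. Tmem222, a membrane protein, had the smallest difference of the 12 and tight groups: 9.97, 11.3 and 10.6 in Ctrl against 22.1, 15.5, 20.0, 15.3 and 19.1 in OE, a log2 difference of 0.72 (0.28 to 1.17). Both genes have Ctrl values within a narrow band, and the OE libraries spread more. Fam189b, a membrane protein, was at 2.14, 0.652 and 2.97 in Ctrl and 5.205, 4.22, 7.08, 10.01 and 9.86 in OE, and Pmf1, a kinetochore protein, had a log2 difference of 1.12 (0.55 to 1.69). Stx5a, a syntaxin of Golgi transport, was listed at or near 0 in Ctrl 1 and Ctrl 2 and at 0.757 in Ctrl 3, and at 12.2, 4.06, 1.70, 3.80 and 5.88 in OE, so no fold is given. In KO 1 and KO 2 it was at 3.89 and 2.16, above Ctrl, while Fam189b, at 1.90 and 2.90, lay inside its Ctrl range.

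Cd48, Gimap3, Arhgap45 and Cxcr4, 4 of the 12, are known mainly from white blood cells. Gimap3, a GTPase of lymphocytes, was at 1.04, 0.376 and 2.35 in Ctrl and 6.06, 3.31, 6.67, 5.00 and 5.50 in OE, a log2 difference of 1.55 (0.71 to 2.39) and 1.24 without Ctrl 2. Cd48, a surface protein of lymphocytes and other leukocytes, was at 1.68, 1.21 and 2.89 in Ctrl and 4.50, 3.95, 5.23, 6.36 and 6.78 in OE, a log2 difference of 1.14 (0.55 to 1.73). Its KO values, 2.70 and 2.83, lay inside the Ctrl range. Arhgap45 encodes HMHA1, a GTPase-activating protein of blood cells, and was at 0.862, 1.88 and 2.68 in Ctrl and 6.73, 2.96, 4.67, 10.2 and 6.95 in OE. The chemokine receptor gene Cxcr4 was listed at 0 in Ctrl 2 and Ctrl 3 and at 0.373 in Ctrl 1, and at 2.99, 1.02, 2.82, 15.9 and 2.99 in OE. Within OE, OE 4 was the highest library for Arhgap45 and Cxcr4 and OE 2 the lowest for all 4 genes, an order that returns in the B cell genes below.

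On the lower side, 144 genes met the same rule, but Fam13a and Tmem135 alone also failed to overlap as deposited while keeping an unadjusted p under 0.05 without Ctrl 2, 2 genes against 33 on the higher side. In TPM as deposited, where Ctrl 2 is not scaled up, the groups did not overlap for 232 genes higher (1.78%) and 31 lower (0.237%). Tmem135 (chromosome 7, 89139714 to 89404222), a membrane protein of mitochondria and peroxisomes, was at 36.3, 94.7 and 26.3 scaled TPM in Ctrl and 15.3, 19.0, 20.8, 15.8 and 22.6 in OE. The OE libraries are close together and Ctrl 2 is the highest by far, and the log2 difference of -1.24 (-2.07 to -0.41) was -0.71 without it. Fam13a (chromosome 6, 58932090 to 59024549), a GTPase-activating protein linked to fat metabolism, was at 1.97, 10.7 and 5.23 in Ctrl and 1.01, 1.78, 1.73, 1.50 and 0.702 in OE. Its log2 difference was -1.38 (-2.28 to -0.49), and -0.90 without Ctrl 2.

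Coq8a (chromosome 1, 180165238 to 180199602), an atypical kinase that supports coenzyme Q synthesis, stood further from OE when Ctrl 2 was left out. It was at 67.1, 25.8 and 87.8 scaled TPM in Ctrl and 14.7, 9.40, 24.1, 8.57 and 16.5 in OE. KO 1 and KO 2, at 16.2 and 20.7, also lay below every Ctrl library. Ctrl 2 is the Ctrl library closest to OE, and the log2 difference of -1.89 (-2.84 to -0.95) was -2.40 without it (-3.23 to -1.57, adjusted p = 0.998). The other 12 genes of coenzyme Q synthesis tested did not follow: none of them was under an unadjusted p of 0.05 in the fit of all libraries, and the median of the 13 was -0.15. Trmt1, a tRNA methyltransferase, was at 10.5, 8.86 and 14.1 in Ctrl and 5.81, 4.77, 6.30, 6.58 and 6.34 in OE, a log2 difference of -0.79 (-1.27 to -0.31) and -0.93 without Ctrl 2. Man2a1, a Golgi mannosidase of glycan processing, was at 26.1, 35.0 and 39.5 in Ctrl and 14.1, 15.1, 19.4, 20.3 and 18.4 in OE. The kinase Dyrk1a had a log2 difference of -1.16 (-1.73 to -0.58), and of -1.03 without Ctrl 2. Its KO values, 32.3 and 24.9, also lay below the lowest Ctrl value, 39.6.

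Of the other lower genes, Decr2 serves peroxisomal beta-oxidation, Acot11 is a fatty acyl-CoA thioesterase, Smpd4 a sphingomyelinase and Adipor2 a receptor for adiponectin. Adipor2 was at 72.6, 163 and 80.3 scaled TPM in Ctrl and 35.0, 60.2, 45.2, 55.7 and 61.2 in OE, with a log2 difference of -0.95 (-1.62 to -0.28), or -0.59 once Ctrl 2 was left out. Decr2 was at 27.1, 31.1 and 29.1 in Ctrl and 10.4, 12.4, 14.4, 14.3 and 15.8 in OE, with little spread in either group, and its log2 difference was -1.07 with all libraries and -1.02 without Ctrl 2. Acot11, Smpd4, Napg and Tmem219 had log2 differences from -1.21 to -0.93, which were -0.76 to -0.68 without Ctrl 2.

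**Figure D2:**
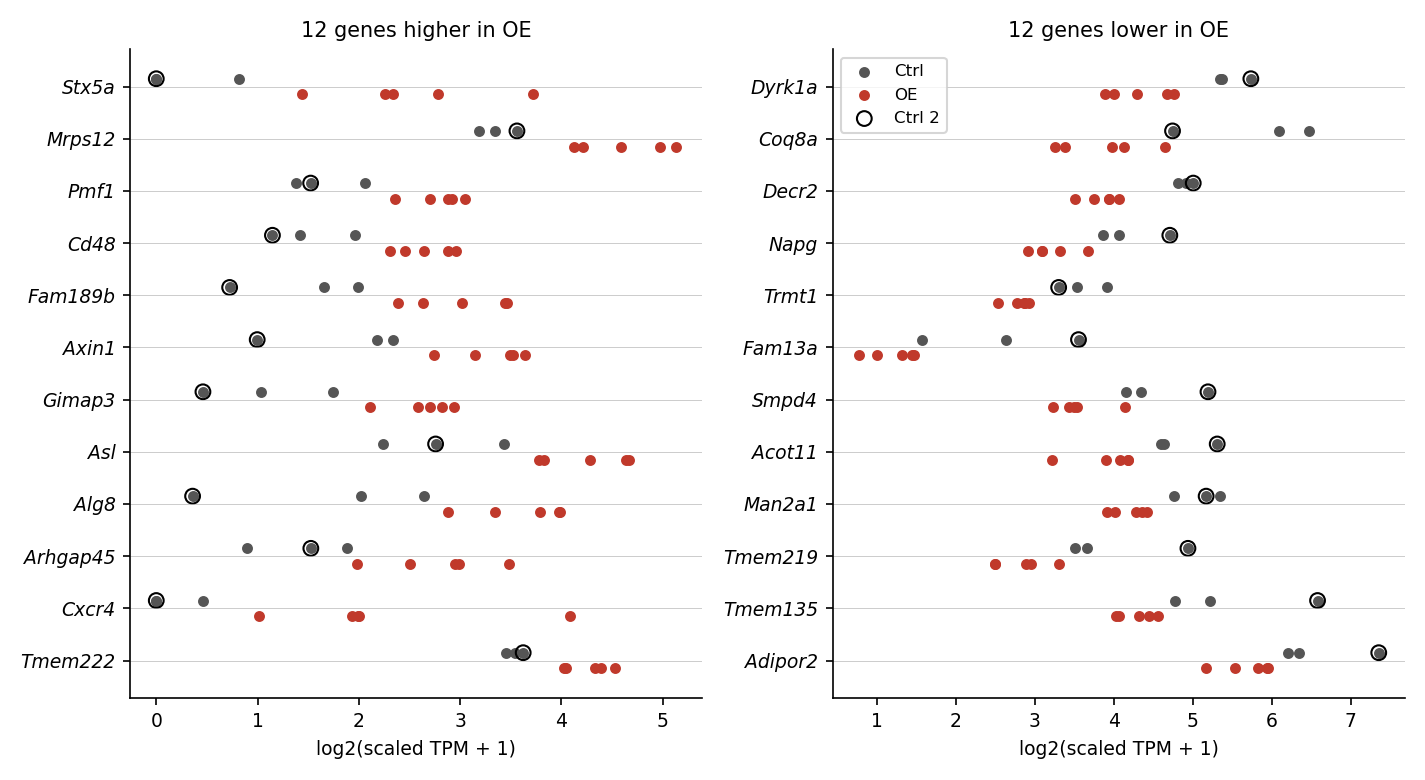
Levels, as log2(scaled TPM + 1), of the 12 genes named on each side in the Ctrl libraries (grey, Ctrl 2 circled) and the OE libraries (red). The groups do not overlap for any of the 24 genes because the rule asked for that, and Ctrl 2 is the library furthest from OE for Axin1, Alg8 and Tmem135 but the closest for Coq8a.

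The classical targets of STAT5 did not move together. Of 24 genes in a list of known target and feedback genes, 20 were tested, 14 with positive and 6 with negative log2 differences, at a median of 0.16 with all libraries and 0.16 without Ctrl 2. Over all genes the medians were 0.02 and -0.01. Cish, an early STAT5 target that blocks cytokine receptors, was at 2.40, 2.77 and 7.60 in Ctrl and 1.88, 3.46, 3.52, 4.77 and 7.05 in OE. The ranges are nearly the same, and the log2 difference was 0.02 (-1.01 to 1.04). Socs2, which restrains growth hormone signalling, was at 145, 46.0 and 81.5 in Ctrl and 49.9, 72.0, 66.3, 61.4 and 78.0 in OE. Without Ctrl 2, which is its lowest library, all OE values lie below the remaining Ctrl values and the log2 difference is -0.74 (-1.38 to -0.10, adjusted p = 0.998), against -0.33 with all libraries.

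In the target list, 2 genes (10%, beside 3.79% of all genes) were under an unadjusted p of 0.05 on the higher side. Tnfrsf13b, the B cell receptor TACI, was at 0.382, 0 and 0.253 in Ctrl and 1.12, 0.5679, 1.33, 6.07 and 0.9749 in OE, a log2 difference of 1.09 (0.06 to 2.11), and the highest library is again OE 4. Gadd45g, a stress gene that binds cell cycle kinases, was at 2.93, 2.19 and 5.86 in Ctrl and 21.8, 6.63, 3.05, 7.44 and 14.4 in OE, a log2 difference of 1.15 (0.02 to 2.29). Neither stayed under 0.05 without Ctrl 2. The growth genes Ccnd1 and Myc had log2 differences of 1.03 and 0.77, and of 0.25 and -0.10 without Ctrl 2. The survival genes Bcl2l1 and Mcl1 had -0.02 and -0.03, the kinase Pim1 -0.44, Socs3 -0.59 and the repressor Bcl6 0.13.

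The STAT5 motif TTCNNNGAA, which reads the same on both strands, was looked for in the 250 bases before the annotated starts of RefSeq genes (GRCm38.p6). It was found in 2306 of 32851 such windows, or 7.02%. Among the 12 higher genes, 10 had a window and Arhgap45 held the motif. Among the 12 lower genes, 10 had a window and Tmem135 held it. Of the STAT5 target genes, 17 had windows, and the motif lay in 3 of the 23 windows, those of Bcl6 and Socs3. The windows of Bcl6, the target with 3 matches, and of the 2 named genes are shown 5′ to 3′ on the strand of the gene, with the matches in capitals.
Bcl6 (chr16:23981284-23981533, minus strand): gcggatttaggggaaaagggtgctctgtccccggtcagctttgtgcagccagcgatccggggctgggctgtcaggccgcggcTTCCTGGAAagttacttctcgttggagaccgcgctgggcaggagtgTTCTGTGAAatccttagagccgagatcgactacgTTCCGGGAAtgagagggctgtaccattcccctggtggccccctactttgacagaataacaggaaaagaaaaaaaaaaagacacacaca
Arhgap45 (chr10:80019425-80019674, plus strand): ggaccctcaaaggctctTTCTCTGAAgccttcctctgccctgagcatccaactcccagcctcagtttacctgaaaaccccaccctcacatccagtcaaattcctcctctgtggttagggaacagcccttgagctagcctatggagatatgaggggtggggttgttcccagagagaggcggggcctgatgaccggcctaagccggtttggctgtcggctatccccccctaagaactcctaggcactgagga
Tmem135 (chr7:89404223-89404472, minus strand): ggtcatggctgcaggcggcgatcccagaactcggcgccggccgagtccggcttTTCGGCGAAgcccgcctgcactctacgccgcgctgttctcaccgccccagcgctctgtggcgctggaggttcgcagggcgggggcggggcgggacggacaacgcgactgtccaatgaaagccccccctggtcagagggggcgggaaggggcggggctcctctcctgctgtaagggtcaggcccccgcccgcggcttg
Bcl6 was at 1.23, 3.48 and 1.50 scaled TPM in Ctrl and 1.30, 2.20, 2.20, 2.97 and 2.54 in OE, overlapping groups. Binding of STAT5 was not measured, and a match is only a stretch of letters.

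Genes that bring signals to STAT5 were mixed. Of 23 receptors and JAK kinases tested, 7 were positive and 16 negative, at a median of -0.17, which was 0.07 without Ctrl 2. Prlr, the prolactin receptor and a direct activator of STAT5, was at 33.5, 59.2 and 33.6 in Ctrl and 41.0, 26.2, 21.1, 13.9 and 17.6 in OE, a log2 difference of -0.83 (-1.58 to -0.08) and -0.56 without Ctrl 2. Il2rg, the chain shared by interleukin receptors of lymphocytes, was at 3.62, 0.231 and 2.70 in Ctrl and 16.8, 3.11, 9.48, 18.2 and 15.4 in OE, a log2 difference of 2.11 that was 1.53 without Ctrl 2. Prlr and Il2rg were named after their values were seen. Ifnar2, a chain of the type I interferon receptor, was at 1.68, 1.56 and 4.53 in Ctrl and 9.08, 7.70, 4.92, 7.83 and 13.1 in OE, groups that do not overlap, with a log2 difference of 1.45 (0.48 to 2.42) and 1.25 without Ctrl 2. Il22ra1, the epithelial interleukin 22 receptor, was lower, at 22.8, 28.8 and 17.9 in Ctrl and 15.6, 14.8, 15.7, 14.6 and 10.9 in OE, a log2 difference of -0.64 (-1.13 to -0.16).

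The study's title concerns Paneth cells and the genes Wnt3a, Tcf4 (Tcf7l2), Sox9 and Gfi1. Sox9, a transcription factor needed to form Paneth cells, was at 13.2, 3.11 and 18.9 in Ctrl and 7.86, 14.5, 16.4, 12.2 and 15.1 in OE. Ctrl 2 is the lowest library of all, and the log2 difference of 0.40 with all libraries was -0.28 without it, with intervals of -0.62 to 1.41 and -0.94 to 0.38. Gfi1, a transcription factor of secretory cells, was listed at 0 in Ctrl 2 and turned in the same way, from 0.42 to -0.19. Tcf7l2, which carries the nuclear end of Wnt signalling, was at -0.11 and -0.04, and Wnt3a was listed at 0 in every library. Among 20 Wnt pathway components tested, the median was -0.01 both with and without Ctrl 2. Axin1 and Tcf7, a factor that T cells also express, were the members under an unadjusted p of 0.05.

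Genes of B cells made up the list furthest above zero without Ctrl 2. All 16 tested B cell and plasma cell genes had a positive log2 difference, at a median of 1.49. Without Ctrl 2, 15 of the 16 were positive, at a median of 1.46. Genes low in Ctrl could pass the filter through OE or KO alone. With no filter, 17 of 18 were positive, at a median of 1.34. At an unadjusted p under 0.05 there were 11 of 16 (68.75%), beside 3.79% of all genes. For 4 (25%, beside 2.21% of all genes) the groups did not overlap. Cd79b, part of the B cell receptor, was at 0.941, 0 and 0.487 scaled TPM in Ctrl and 2.81, 1.45, 2.14, 8.72 and 4.01 in OE, a log2 difference of 1.59 (0.54 to 2.64, adjusted p = 0.755) and 1.33 without Ctrl 2. Every OE library lies above every Ctrl library, with OE 4 the highest and OE 2 the closest to Ctrl. Igkc, the constant part of the kappa light chain, was at 163, 103 and 28.9 in Ctrl and 224, 97.3, 384, 1057 and 469 in OE, with OE 2 inside the Ctrl range.

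The list summed to 72.4 to 255 scaled TPM in Ctrl and to 345, 166, 483, 1362 and 604 in OE 1 to OE 5. Of the KO libraries, KO 1 lies above the Ctrl range, at 303, and KO 2 inside it, at 136. The defining marker Cd79a was at 0 to 0.834 in Ctrl and 0.742 to 8.52 in OE, and Ms4a1 at 0 to 1.65 and 0.622 to 33.5, with OE 2 inside the Ctrl range for both. The count of 11 genes was 7 without Ctrl 2 (beside 2.05% of all genes), 6 without Ctrl 3 and 4 when Ctrl 2 and OE 4 were both left out, when the median was 1.09. Without Ctrl 3, OE 3 and OE 4 it was also 4, with a median of 0.85. The shares of all genes in the settings without Ctrl 3 or OE 4 are not given here. In RNA from whole crypt preparations, more B cells and more RNA per B cell cannot be told apart, and the part that white blood cells have in differences of other genes was not tested.

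Genes of MHC class II, which present antigen to helper T cells and are made by B cells, dendritic cells and also ileal epithelium, were positive for all 11 members, at a median of 0.51 with all libraries and 0.61 without Ctrl 2. The 5 whose groups do not overlap (45.5% against 2.21% of all genes) were H2-Ob, H2-Oa, H2-DMb1, H2-Eb2 and Cd74. H2-Ob, part of the DO complex of B cells, was at 1.38, 0 and 0 in Ctrl and 4.16, 1.43, 2.40, 21.5 and 5.19 in OE, again highest in OE 4 and lowest in OE 2. Cd74, the invariant chain, is far more abundant and was at 362, 431 and 349 in Ctrl and 794, 490.4, 457, 464 and 555 in OE, a log2 difference of 0.51 (-0.14 to 1.16). The peptide-binding chains H2-Aa and H2-Ab1, the most abundant members, had log2 differences of 0.15 and 0.16. In both, OE 1 was high and the other OE libraries lay across the Ctrl range. Without OE 1, 9 members were positive, at a median of 0.40. The list summed to 1299 to 2066 in Ctrl, to 4597, 1583, 1318, 1421 and 2493 in OE 1 to OE 5, and to 1130 in KO 1 and 2704 in KO 2. The mean log2 level was 3.91 to 4.22 in Ctrl and 4.30 to 5.30 in OE. KO 1 and KO 2, at 4.31 and 4.63, also lay above every Ctrl library.

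Genes of T cells in the epithelium were positive for 20 of 21 members, at a median of 0.64 and 0.65 without Ctrl 2. Yet none had groups that do not overlap, and 2 (9.52%, beside 3.79% of all genes) were under an unadjusted p of 0.05. That count was 0 without Ctrl 1 or OE 5, 1 without OE 1 or OE 4, 4 without OE 3, 6 without Ctrl 3 and 10 without OE 2. The shares of all genes in these settings are not given here. Gzma, the granzyme of cytotoxic lymphocytes, was at 19.6, 38.7 and 62.0 in Ctrl and 158, 43.0, 67.1, 116 and 218 in OE, a log2 difference of 1.49 (0.22 to 2.75). The list summed to 85.7 to 241 scaled TPM in Ctrl and 134 to 576 in OE, and to 49.8 in KO 1 and 110 in KO 2. Of 24 macrophage, dendritic cell and neutrophil genes, 18 passed the filter, which genes low in Ctrl could pass through OE or KO alone. All 18 were positive, at a median of 0.45 and 0.50 without Ctrl 2. With no filter, 21 were positive and 2 negative, at a median of 0.41. The 18 genes summed to 53.2 to 89.9 in Ctrl and 82.3 to 333 in OE, highest in OE 1. The KO libraries also lay above the Ctrl range, at 271 in KO 1 and 160 in KO 2. Lyz2, a lysozyme of macrophages whose reads can be shared with the Paneth gene Lyz1, was at 10.3, 10.7 and 2.39 in Ctrl and 193, 24.3, 77.7, 45.1 and 11.6 in OE. The defining macrophage markers were near the floor: Cd68 was listed at 0 in Ctrl 2, Ctrl 3 and OE 4, and at most at 2.24 elsewhere among Ctrl and OE.

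Fibroblast and matrix genes were positive for 10 of 13, at a median of 0.54 and 0.68 without Ctrl 2, but the sums overlap, 28.8 to 89.1 in Ctrl and 24.9 to 145 in OE, and the list's median was 0.19 without OE 1. Epithelial genes summed to 5434 to 7191 scaled TPM in Ctrl and 5514 to 8729 in OE, at a median of 0.12.

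**Figure D3:**
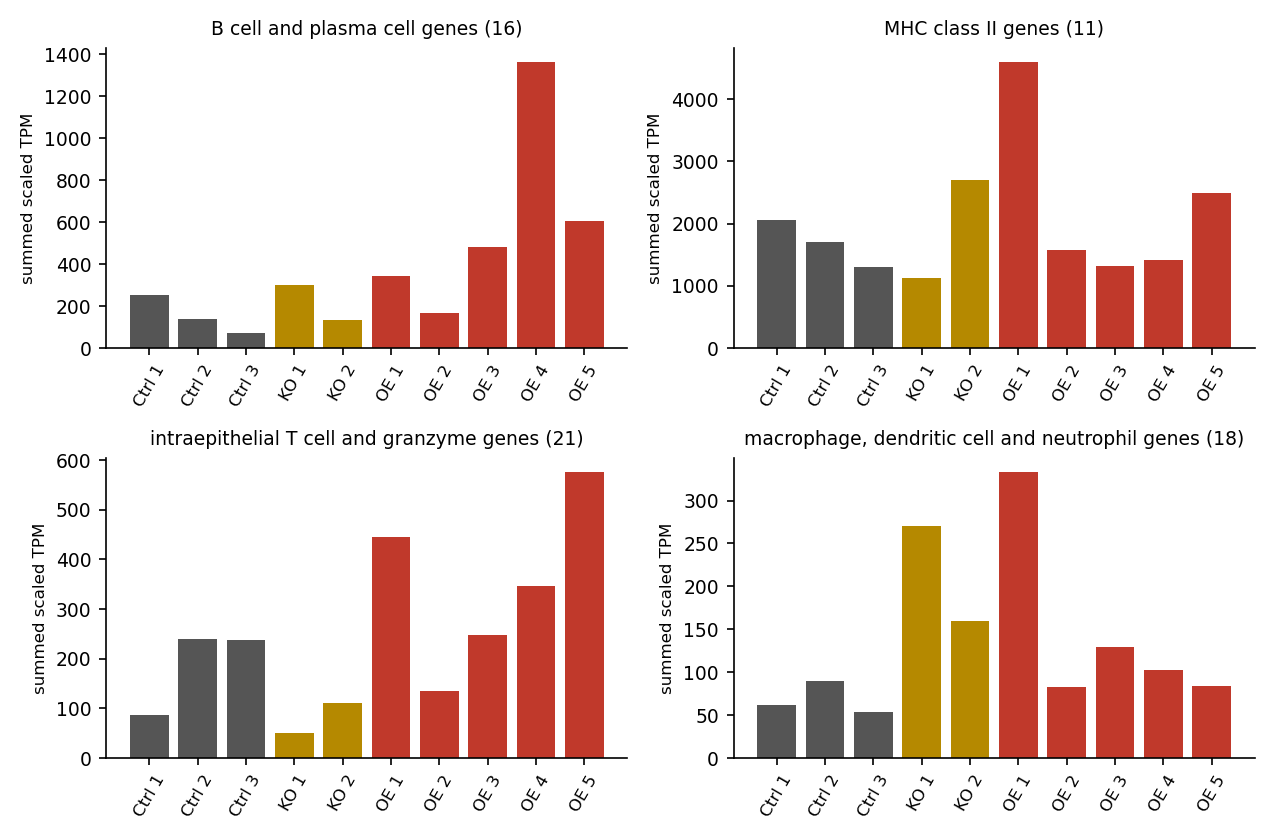
Summed scaled TPM (linear axes from 0) of 4 gene lists in each library, Ctrl in grey, KO in ochre and OE in red, with the number of genes in brackets. B cell genes peak in OE 4, at 1362, MHC class II and macrophage genes in OE 1 and T cell genes in OE 5, and OE 2 lies inside the Ctrl range in all 4.

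Genes of the cytosolic ribosome had somewhat higher values in OE, but the levels of the list overlap. The list's mean log2 level was 5.99, 5.26 and 5.56 in Ctrl 1 to Ctrl 3. In OE 1 to OE 5 it was 6.45, 6.23, 5.96, 5.79 and 6.30. KO 1, at 6.43, lay above every Ctrl library, and KO 2, at 5.96, lay inside the Ctrl range. Of 79 tested, 73 had a positive log2 difference, at a median of 0.54, and 68 were positive without Ctrl 2, at a median of 0.38. At an unadjusted p under 0.05 there were 19 higher (24.1%, beside 3.79% of all genes) and 0 lower (beside 2.31%). The groups did not overlap for 15 (19.0% against 2.21% of all genes). Rps3, of the small subunit, was at 41.1, 27.9 and 37.3 in Ctrl and 62.0, 52.7, 69.5, 56.3 and 54.8 in OE, a log2 difference of 0.73 (0.26 to 1.21) and 0.57 without Ctrl 2. Rpl32, of the large subunit, was at 108, 72.8 and 75.6 in Ctrl and 170.1, 144, 156, 109 and 137 in OE, and OE 4 is only just above Ctrl 1. Rps2 went the other way, at 1109, 632 and 1276 in Ctrl and 69.7, 312, 114, 779 and 1671 in OE. The count of 19 was 10 without Ctrl 2 (beside 2.05% of all genes), 29 without Ctrl 1, 9 without OE 1 and 7 without Ctrl 2 and OE 1, when the median was 0.32. The shares of all genes in the other settings are not given here. These genes have many processed pseudogenes, and how reads were split between them is not given in the sources used here, so single values are uncertain.

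Mitochondrial ribosomal proteins were positive for 52 of 77, at a median of 0.21 (0.16 without Ctrl 2), with Mrps12 the furthest out. Mrpl36 and Mrpl44 also had groups that do not overlap. With Mrps12 these are 3 of 77 genes on the higher side (3.90%), near the 2.21% of all genes. Mrpl36 was at 14.5, 9.65 and 10.2 in Ctrl and 18.8, 17.1, 30.9, 19.5 and 24.1 in OE. Proteasome subunits were positive for 30 of 35, at a median of 0.28 (0.16). Nuclear-encoded respiratory chain genes had a median of 0.07 (0.17). These medians are small beside the 0.54 of the cytosolic ribosome.

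Genes of fatty acid oxidation and peroxisomes were negative for 36 of 45, at a median of -0.37, which was -0.15 without Ctrl 2 and 0.11 in TPM as deposited. In the deposited values all genes together had a median of 0.36, so the list lay below the median of all genes there too. At an unadjusted p under 0.05 there were 4 lower genes (8.89%, beside 2.31% of all genes), 2 without Ctrl 2 (beside 1.16% of all genes) and 14 without Ctrl 3. The share of all genes without Ctrl 3 is not given here. Another list rose there too: xenobiotic enzymes had 4 lower genes with all libraries and 20 without Ctrl 3. Decr2, Eci2 and Hadhb, which act in beta-oxidation, had groups that do not overlap on the lower side (6.67% of the list, beside 1.52% of all genes). Eci2, an enoyl-CoA isomerase, was at 30.3, 63.6 and 42.1 in Ctrl and 21.6, 26.1, 22.4, 27.5 and 29.0 in OE. Hadhb, of the mitochondrial trifunctional protein, was at 77.8, 81.7 and 67.3 in Ctrl and 51.7, 49.4, 49.3, 52.3 and 59.8 in OE, a log2 difference of -0.52 (-1.04 to 0.01) and -0.46 without Ctrl 2. The OE libraries of both genes lie in a narrow band.

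The lists that describe what crypts are known for depended on Ctrl 2. All 16 alpha-defensins tested were positive, with a median of 1.97 that was 0.45 without Ctrl 2. Defa24 was at 2229, 138 and 1515 in Ctrl and 2673, 1724.5, 2443, 1585 and 5565 in OE, and near-identical copies make each alpha-defensin uncertain. Other Paneth cell products went from a median of 0.77 to 0.12. Lyz1, the Paneth lysozyme, was at 2191, 84.1 and 576 in Ctrl and 1488, 912, 3688, 426 and 1268 in OE, so the spread within each group is far larger than the difference without Ctrl 2, 0.12. Lgr5 stem cell and Wnt target genes went from 0.22 to -0.21, goblet cell genes from 0.26 to -0.10 and secretory regulators from 0.33 to -0.10.

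Genes of dividing cells followed the same course. Of 40 mitosis genes 38 were positive with all libraries, at a median of 0.64, and 25 without Ctrl 2, at a median of 0.08, and of 48 replication genes 46 and 32 were positive, with medians of 0.52 and 0.11. Top2a, the topoisomerase of dividing cells, was lowest by far in Ctrl 2, at 114, 7.76 and 79.1 in Ctrl and 75.7, 117.3, 105, 84.4 and 103 in OE. A few members kept some distance without Ctrl 2: the replication clamp Pcna was at 12.8, 11.8 and 28.1 in Ctrl and 37.4, 33.5, 27.4, 29.7 and 35.3 in OE, and its log2 difference of 0.96 was 0.74 without Ctrl 2 (0.04 to 1.44). Orc6, of the origin recognition complex, went from 0.77 to 0.62 (0.06 to 1.17 without Ctrl 2). The mitosis count of 8 genes at an unadjusted p under 0.05 (20% of the list, beside 3.79% of all genes) was 2 without Ctrl 2 (beside 2.05% of all genes). It was 18 without Ctrl 1, 12 without Ctrl 3, 3 to 4 without OE 2, OE 3, OE 4 or OE 5, and 1 with a replicate block. The shares of all genes in these other settings are not given here, so these counts only show how far the count moves.

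Enterocyte programs were the mirror image. All 27 lipid absorption genes were negative with all libraries, at a median of -0.62, and 12 without Ctrl 2, at a median of 0.05. Fabp2, the intestinal fatty acid binding protein, was at 949, 3197 and 164 in Ctrl and 2627, 436, 1082, 61.4 and 788 in OE, from the lowest level in OE 4 to the highest in Ctrl 2. Brush border genes went from -0.42 to 0.12, nutrient transporters from -0.59 to -0.09 and xenobiotic enzymes from -0.84 to -0.05. Eps8, an actin-capping protein of microvilli, was the exception among brush border genes, at 67.6, 68.0 and 67.2 in Ctrl and 36.8, 54.0, 54.6, 47.3 and 28.3 in OE, with a log2 difference of -0.64 both with and without Ctrl 2. The 13 transcripts encoded by mitochondria were all negative, at a median of -0.73, and 11 of 13 were positive without Ctrl 2, at a median of 0.15.

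**Figure D4:**
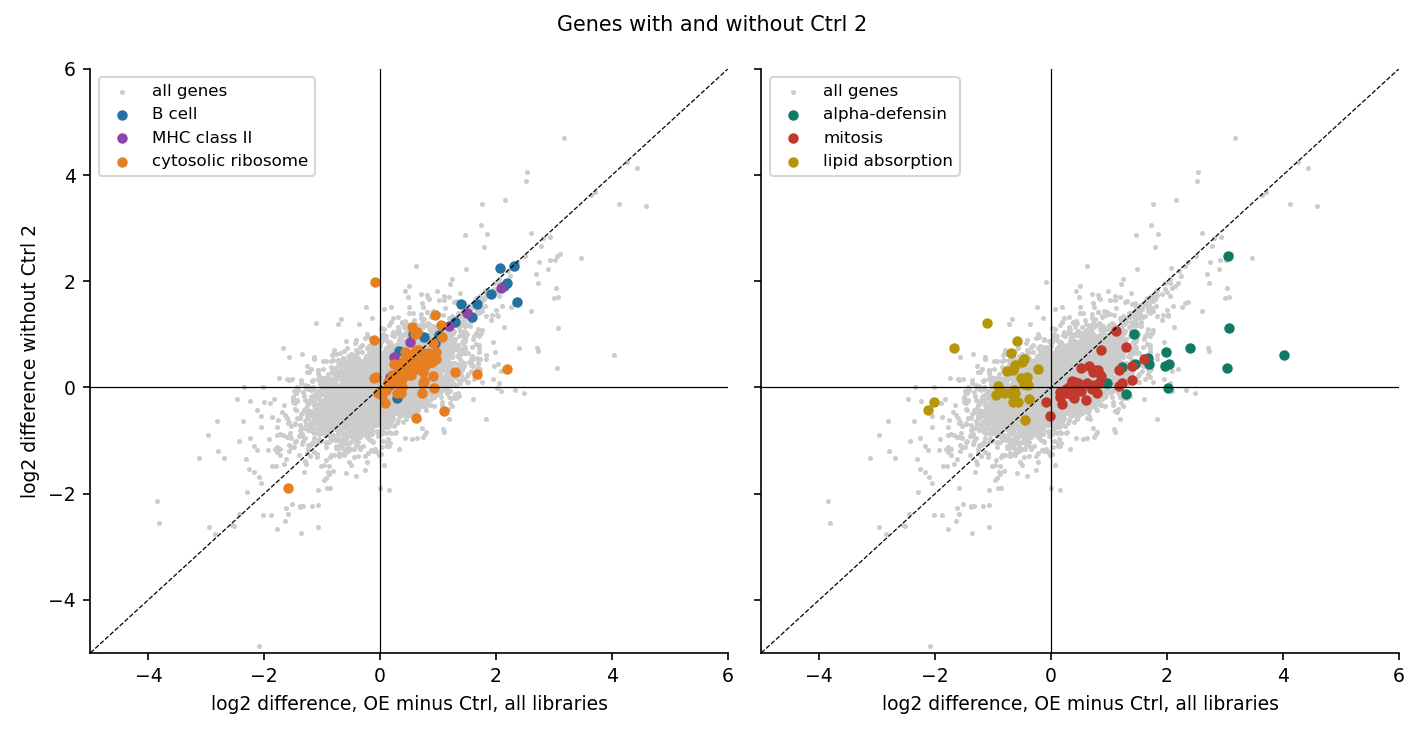
Log2 difference (OE minus Ctrl) of each gene with a symbol, with all libraries on the horizontal axis and without Ctrl 2 on the vertical axis, and the line of equal values dashed. B cell and MHC class II genes lie along the dashed line, most alpha-defensins and mitosis genes lie to the right near zero on the vertical axis, and lipid absorption genes lie to the left around zero.

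**Figure D5:**
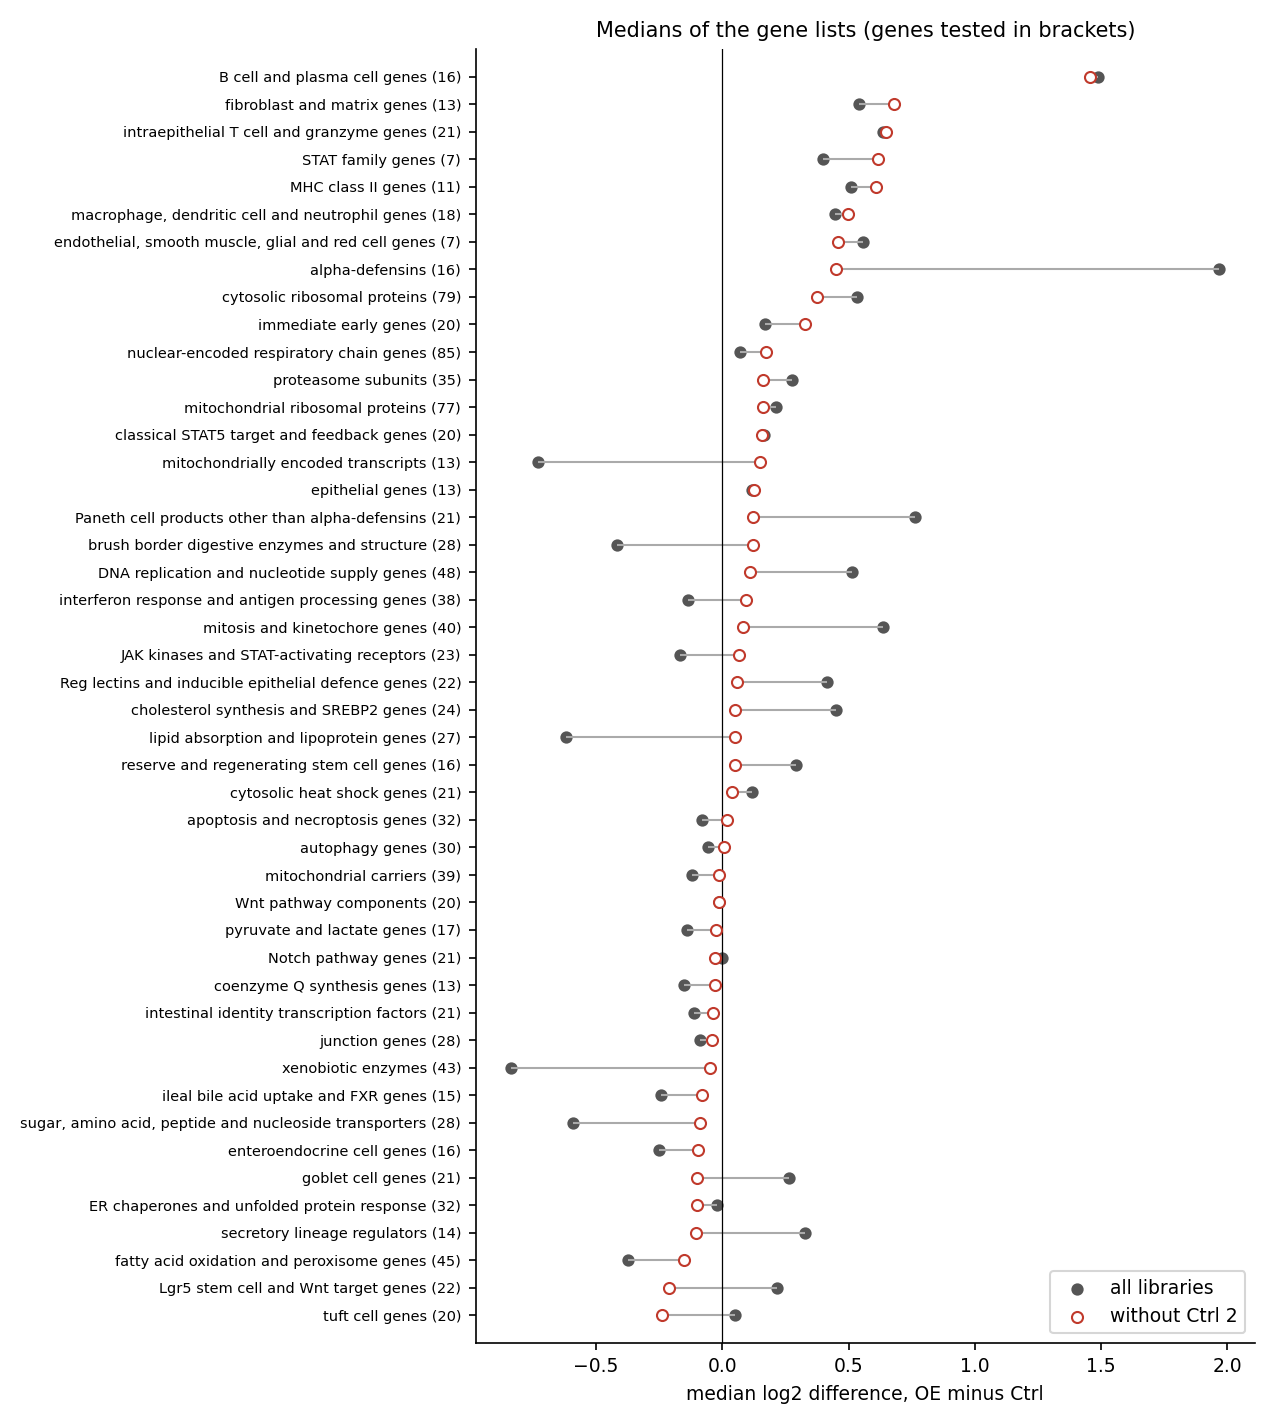
Median log2 difference (OE minus Ctrl) of each gene list except the Y-linked genes, with all libraries (grey) and without Ctrl 2 (open red), sorted by the latter. The B cell median is 1.49 and 1.46, while that of alpha-defensins goes from 1.97 to 0.45 and that of lipid absorption crosses zero from -0.62 to 0.05.

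Several other lists showed little in either fit. Notch pathway genes, junction genes, autophagy genes, chaperones of the endoplasmic reticulum and mitochondrial carriers had medians between -0.12 and 0.01 in both fits. In the chaperone list the stress sensor kinase Eif2ak3 (PERK) did not overlap, at 13.2, 9.86 and 12.0 in Ctrl and 17.9, 25.3, 16.2, 18.3 and 30.1 in OE, a log2 difference of 0.80 that was 0.70 without Ctrl 2. Interferon response genes had a median of -0.14 (0.09 without Ctrl 2), and Nlrc5, the activator of MHC class I genes, was at 0.960, 0.168 and 1.46 in Ctrl and 8.62, 4.98, 2.26, 3.66 and 2.56 in OE. Over the 47 lists, 0 members were called at an adjusted p under 0.05.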

How the data were processed

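RNA from ileal crypts, shaken off in PBS with EDTA, was sequenced as single-end libraries, per the labels' protocols. The deposited values are TPM per gene in each library, made by the authors, and the submitters' processing notes name TopHat, Cufflinks and mm10 without versions or roles. The header of Ctrl 1 names no unit and its values were read as TPM because they sum like those of the other libraries. How TPM were computed is not given in the sources used here, counts were not used here, and the depth behind each TPM value is unknown. Gene symbols were matched by ID for 27458 of 28987 genes, and 43 sets of IDs with identical values (92 IDs) were kept.

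TPM were divided by a median-ratio factor from 11146 genes above 0 in all libraries. The 13056 genes that reached a TPM of 1 in 2 or more libraries entered limma 3.58.1 (R 4.3.3). The response was log2(scaled TPM + 1), the model had the 3 group means over all 10 libraries and a mean-variance trend, and p-values were adjusted by Benjamini and Hochberg over all of them. Fold changes on this scale understate low genes. The same fit was made without Ctrl 2. All p-values of single genes are limma's unless named as exact permutation tests. The code was tested on simulated data.

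Named genes are Stat5a and Stat5b, the title's genes, the 12 per direction with the smallest p (protein-coding, groups not overlapping, mean of the higher group at least 5 scaled TPM), the STAT5 targets, and of each list up to 4 of the most abundant and up to 4 of the smallest p among those not overlapping. Prlr, Il2rg, Tcf7, Vil1, Cd79a, Ms4a1, Cd68, Cdh5, Pecam1, Myh11, Des, Alas2, Rps2-ps10 and Gm12252 fall outside it. The members and lists were chosen with earlier results of these data known. Alternatives covered scaling, filter, pseudocount, each library left out and a replicate block. Same-numbered libraries showed no shared deviation, in a check that cannot exclude pairing.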

Additional observations from a re-analysis of the deposited data

Results flagged for a closer look

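In 80 measures over the 5 OE libraries, 3 had a library far from the other 4, a gap above 0.71 of the whole range, and chance alone gives about 1 in 20 such measures. Acot11 was lowest in OE 5, at 8.27 scaled TPM against 14.0 to 17.1 in the other OE libraries. The mean log2 level of macrophage, dendritic cell and neutrophil genes was highest in OE 1, at 2.35 against 1.20 to 1.52. The mean log2 level of mitochondrially encoded transcripts was also highest in OE 1, at 14.44 against 13.3 to 13.6.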

How the results depend on the processing

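The count of genes called at an adjusted p under 0.05 in limma was 0 under most settings, and 495 higher and 302 lower genes had an unadjusted p under 0.05. It was 1 with only the Ctrl and OE libraries fitted, 1 without Ctrl 3, OE 3 and OE 4, 0 to 1 when single libraries were left out, and 0 under each setting tried without Ctrl 2. With the replicate number as a block it was 3. Same-numbered libraries had correlated deviations of -0.177 to 0.0634, so the numbers do not pair the libraries. With the block the log2 difference was 0.70 for Stat5b and 0.32 for Stat5a. Leaving out single libraries moved Stat5b between 0.66 and 1.02 and Stat5a between 0.22 and 0.62. Of 6601 values of 265 named genes under other settings, 193 changed sign and moved by at least the standard error of the main fit. Of these values, 0 changed sign for a gene that was called or had an unadjusted limma p under 0.05 in the main fit. Many of these genes were named because their groups do not overlap, which fixes their sign when libraries are left out. Changes of size without a change of sign were not counted. Of 1175 list medians, 65 moved by at least the spread of the list's mean level within groups. In TPM as deposited the median of all genes shifts from 0.02 to 0.36, so directions are read relative to it. Leaving out Ctrl 2 with OE 4, and testing protein-coding genes alone, were chosen after seeing the data. The cause of these changes was not tested. Without counts, the precision of low values such as Stat5a cannot be given.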

Other observations

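Several genes split the OE libraries among themselves and were chosen after their values were seen. Pla2g2a, a secreted phospholipase of Paneth cells that is known to be inactive in C57BL/6 mice, was at 15.99, 0 and 16.6 scaled TPM in Ctrl and 14.3, 9.93, 428 and 317 in OE 1 to OE 4. OE 5 lay a little above the Ctrl range. OE 3 and OE 4, the libraries high for it, are also low in Y-linked transcripts. Atp6v0c, a proton pump subunit, was at 59.1, 63.1 and 53.6 in Ctrl and 2.67, 5.39, 1.42, 42.3 and 62.4 in OE. Its values are low in OE 1 to OE 3, where the predicted gene Gm6311 was at 152, 140 and 77.0, against 3.91 and 3.51 in OE 4 and OE 5. Reads shared between near-identical copies can be split differently between libraries, and their part in these values was not tested.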
